A study of Mus musculus with 8 samples.

Results

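The matrix metalloproteinases (MMPs) and their tissue inhibitors (TIMPs) were examined in colon tumor samples of mice as 10 genes, Mmp2, Mmp3, Mmp7, Mmp9, Mmp10, Mmp13, Mmp14, Timp1, Timp2 and Timp3, taken by symbol from a 1-colour Illumina BeadChip. They had 16 of the 25697 probes and made up 10 of 18138 gene symbols. Total RNA was compared between 4 tumors of APCmin/+/VP16LXRa mice (replicates 5 to 8) and 4 tumors of APCmin/+/VP16 mice (replicates 1 to 4). All mice carried the min allele of Apc, a brake on Wnt signalling whose loss starts intestinal tumors. Their strain was a mix of C57BL/6J and FVBN, and their age 8 months. In the VP16LXRa group the transgene joins the nuclear receptor LXRα, which senses oxysterols, to the viral activation domain VP16, so that the receptor is active without ligand, and in the VP16 group it encodes VP16 alone. The promoter of the transgene is not named in the sources used here. The labels do not tell whether each tumor is from a mouse of its own, so p-values measure only the spread between these samples, which may be technical.

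MMPs are zinc-dependent proteases that are made as inactive precursors and cut collagens, basement membrane and many cell-surface proteins once their propeptide is removed. TIMPs bind the active site and block it, and Timp2 also takes part with Mmp14 in activating the precursor of Mmp2. In intestinal tumors several MMPs are known from stromal and inflammatory cells, while Mmp7 is known as a product of epithelial cells, of Paneth cells in the mouse small intestine and of adenoma cells.

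Values are log2 intensities after background correction, quantile normalization and an offset of 16, so that a change of 1 is a doubling for bright probes and more than a doubling of signal for dim ones, whose folds this scale understates. Between 11469 and 12257 probes were detected per array (detection p-value under 0.01), and the mean log2 intensity of undetected probes was 4.60 to 4.64. The 11875 probes detected on at least 4 arrays were tested, among them 11 probes of 9 members, and Mmp7 was left out because 3 arrays detected it. Of the colon epithelial markers 9 of the 10 listed were on the array and all 9 were kept, among them Krt8 and Lgals4 at means of 14.57 and 14.82 over the 8 arrays. Others of this list varied. Krt20 and Cdx2 stood at 5.36 and 6.05 in VP16LXRa replicate 5 and at 11.23 and 9.17 in VP16 replicate 1, against at least 12.48 and 11.68 elsewhere. These markers speak to colon epithelium and do not test the tumor label. VP16LXRa replicate 5 and VP16 replicate 1 stood apart from the others: across probes r was 0.95 between them, whereas with the other 6 arrays VP16LXRa replicate 5 correlated at 0.833 to 0.862 and VP16 replicate 1, which stood less far apart, at 0.891 to 0.924. Each group held 1 of them, and the comparison of the tested members is therefore also given without both. In such tissue RNA, fewer cells of a type and less RNA per cell cannot be told apart.

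No MMP or TIMP gene differed detectably between VP16LXRa and VP16 tumors. Of the 11 tested probes 0 passed limma's test (adjusted p = 1 for each), against 0.00842% of all tested probes (1 of 11875), and 0 had an unadjusted p under 0.05, against 1.68% of all. Groups overlapped for all 11, while they did not overlap for 1.28% of all tested probes. The VP16LXRa mean was higher for 7 of the 11 and lower for 4, with a median log2 difference (VP16LXRa minus VP16) of 0.28, against 0.002 and a share of 50.4% higher over all tested probes. The spread over the 8 tumors of both genotypes was wide: 7 of the 11 had an SD over the 8 arrays of at least 1, against 6.35% of all tested probes, and the median SD was 1.47 against 0.35. In 10 of the 11 the same pair of tumors, VP16LXRa replicate 5 and VP16 replicate 1, lay above the other 6, against 20.4% of all tested probes. By at least 1 log2 unit they did so in 9 of the 11, against 2.43%. These counts cover only probes that passed the filter on dim signals, and the probes of Mmp3 and Mmp10, detected on 5 arrays each, would not have passed it without this pair.

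**Figure D1:**
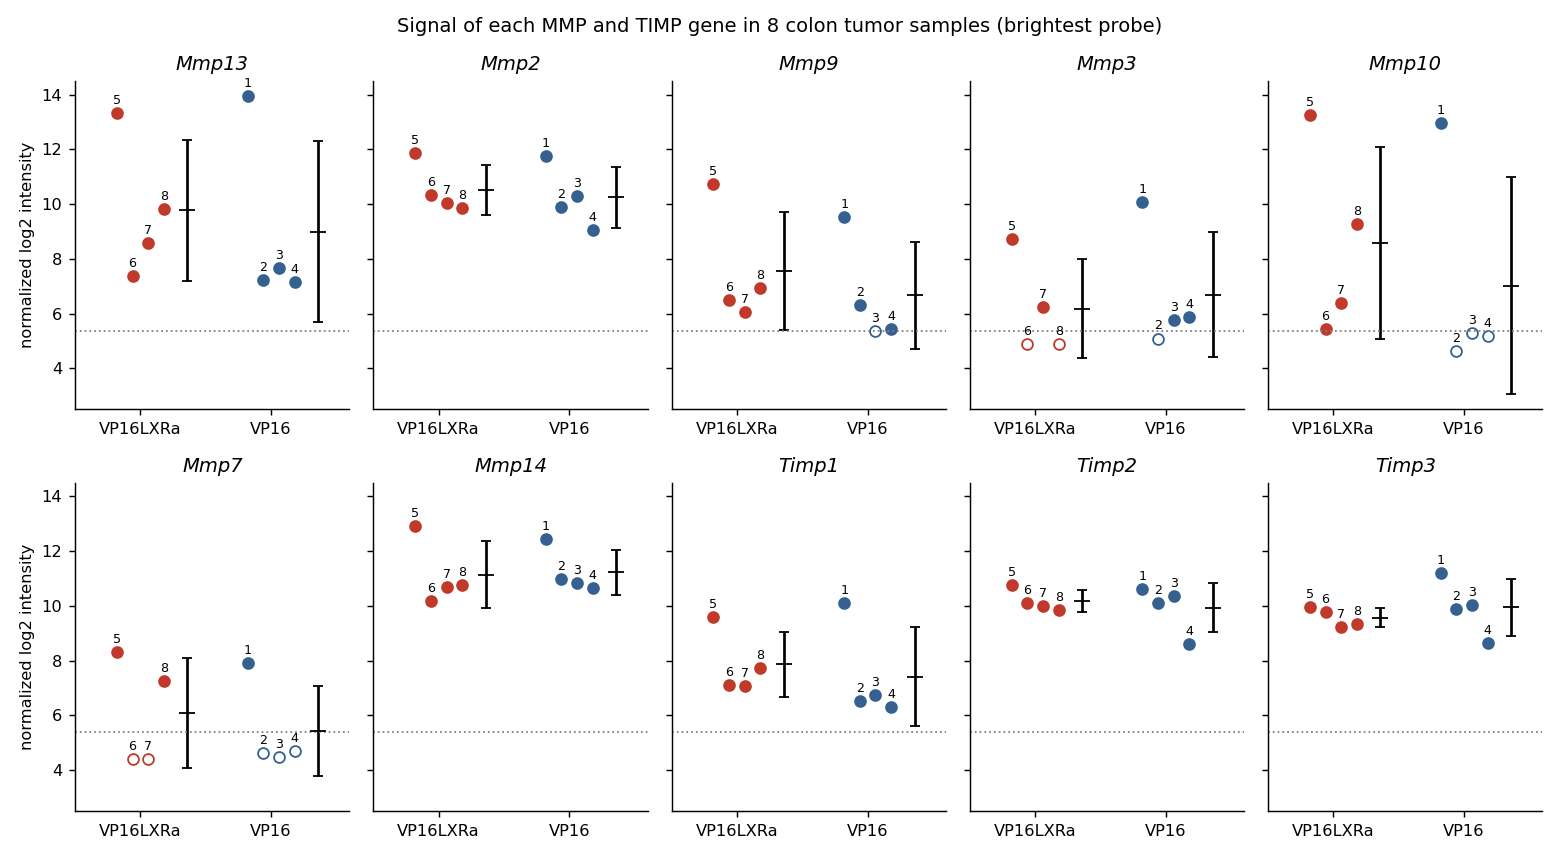
Normalized log2 intensity (y axis) of the brightest probe of each gene in 4 VP16LXRa (red) and 4 VP16 tumors (blue), numbered by replicate; open circles were not detected, black bars are means ± SD (n = 4), and the dotted line is the mean over arrays of the lowest detected signal. VP16LXRa replicate 5 and VP16 replicate 1 are the highest pair for all genes but Timp3, and the groups overlap for each gene.

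The collagenase Mmp13, which cuts fibrillar collagens, was detected in all 8 tumors by its brightest probe. Its log2 intensity was 13.31, 7.37, 8.59 and 9.81 in VP16LXRa replicates 5 to 8, against 13.95, 7.21, 7.67 and 7.14 in VP16 replicates 1 to 4. VP16LXRa replicate 5 and VP16 replicate 1 were far above the rest, and VP16LXRa replicates 7 and 8 lay above the other 3 VP16 tumors. VP16LXRa replicate 5 stood 26.3-fold above the median of the other VP16LXRa tumors, and VP16 replicate 1 stood 107-fold above the median of the other VP16 tumors. The means were 9.77 ± 2.56 in VP16LXRa and 8.99 ± 3.31 in VP16 tumors (SD, n = 4 each), a log2 difference of 0.78 (SE 1.76, 95% interval -3.24 to 4.80). The exact permutation test gave p = 0.6 (two-sided; the smallest that 4 against 4 allows is 0.0286). A dimmer Mmp13 probe was detected in 2 VP16LXRa tumors, replicates 5 and 8 at 8.34 and 6.15, and in 1 VP16 tumor, replicate 1 at 9.37. The dimmest was detected in the same pair of high tumors only, at 5.97 in VP16LXRa replicate 5 and 6.25 in VP16 replicate 1.

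The stromelysins Mmp3 and Mmp10 cut proteoglycans, laminin and fibronectin and activate other MMP precursors. Mmp10 stood at 13.26, 5.43, 6.38 and 9.26 in VP16LXRa replicates 5 to 8, against 12.95, 4.65, 5.30 and 5.17 in VP16 replicates 1 to 4. It had the widest range over the 8 arrays among the members, 8.60 log2 units, since it was bright in 1 tumor of each group and close to background in several others. All 4 VP16LXRa tumors but only 1 of 4 VP16 tumors passed the detection threshold. The detection p-values of VP16 replicates 3 and 4 were 0.0138 and 0.0288, so that this count depends on the threshold of 0.01, and no fold is fixed against undetected tumors. The log2 difference was 1.57 (SE 2.23, 95% interval -3.52 to 6.65), with an exact permutation p of 0.457.

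Mmp3 was read by 2 tested probes. The brighter stood at 8.71, 4.89, 6.25 and 4.88 in VP16LXRa replicates 5 to 8, against 10.07, 5.09, 5.76 and 5.86 in VP16 replicates 1 to 4. It was detected in 2 VP16LXRa tumors (replicates 5 and 7) and 3 VP16 tumors (replicates 1, 3 and 4). The highest tumor was VP16 replicate 1 at all 3 probes of Mmp3. The other tested probe stood at 8.62, 5.22, 5.91 and 5.46 in VP16LXRa replicates 5 to 8, against 9.81, 5.28, 5.37 and 5.76 in VP16 replicates 1 to 4. The probes differed in which dim tumors they detected: VP16LXRa replicate 8 passed at this one and not at the brighter, and VP16 replicate 3 the reverse. The log2 differences were -0.51 (SE 1.22) and -0.25 (SE 1.13) at the tested probes (exact permutation p = 0.657 and 0.829). The untested probe was detected in VP16LXRa replicate 5 and VP16 replicate 1 alone, at 7.75 and 8.44.

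Mmp7, or matrilysin, is a small MMP that in mouse intestine activates defensins and is known as a Wnt target in adenomas. It stood at 8.31, 4.39, 4.41 and 7.27 in VP16LXRa replicates 5 to 8, against 7.90, 4.64, 4.49 and 4.68 in VP16 replicates 1 to 4. It was detected in VP16LXRa replicates 5 and 8 and in VP16 replicate 1, and all other tumors lay at the level of undetected probes. The means of 6.09 ± 2.00 in VP16LXRa and 5.43 ± 1.65 in VP16 tumors (SD, n = 4 each) rest on those 3 tumors, and the exact permutation p was 0.743.

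Mmp13, Mmp3, Mmp10 and Mmp7 lie in 1 block of chromosome 9 that holds 10 MMP genes with no other protein-coding gene between them in the GRCm38.p6 annotation, in the order Mmp13, Mmp12, Mmp1b, Mmp3, Mmp1a, Mmp10, Mmp8, Mmp27, Mmp20 and Mmp7. All 10 were on the array, and 6 were detected on at least 1 array. Mmp12, the macrophage elastase, stood at 7.93, 4.69, 5.20 and 5.84 in VP16LXRa replicates 5 to 8, against 7.80, 4.97, 4.54 and 4.54 in VP16 replicates 1 to 4. It was detected in VP16LXRa replicates 5 and 8 and in VP16 replicate 1, the same tumors as Mmp7. Mmp1a, between Mmp3 and Mmp10, did not share this order: its brighter probe ranged from 5.29 to 5.94 in VP16LXRa and from 5.67 to 6.34 in VP16 tumors. Mmp1b, Mmp8, Mmp27 and Mmp20 were detected on no array, so that the high pair of tumors did not show signal across the whole block.

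**Figure D2:**
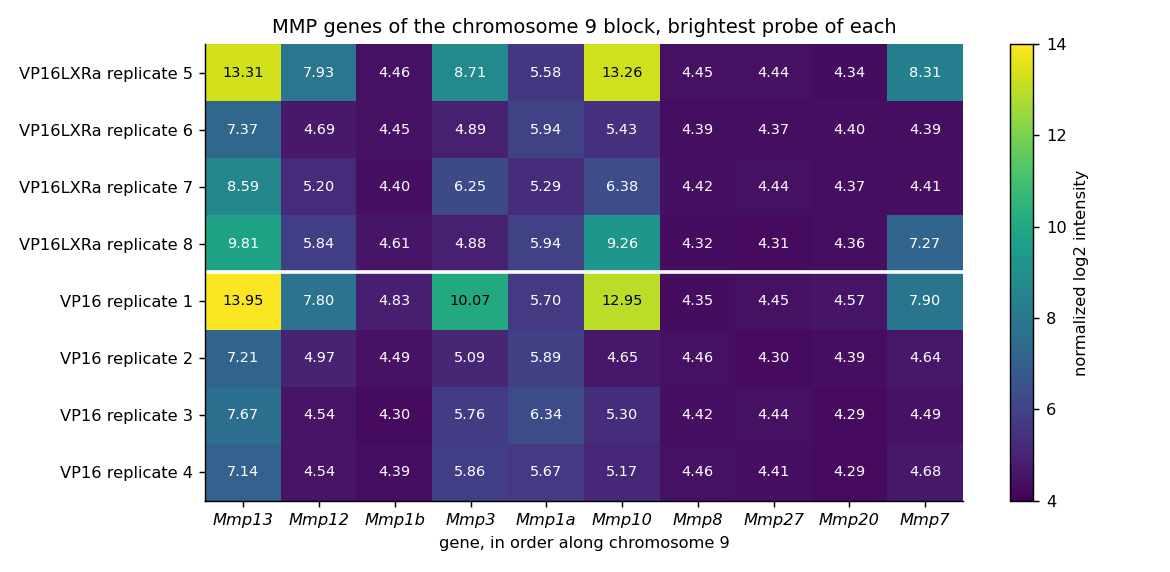
Normalized log2 intensity (colour and number) of the brightest probe of the 10 MMP genes in their order on chromosome 9 (x axis) in each VP16LXRa (upper 4 rows) and VP16 tumor (lower 4 rows). Mmp13, Mmp12, Mmp3, Mmp10 and Mmp7 are bright in VP16LXRa replicate 5 and VP16 replicate 1, while Mmp1a is not and Mmp1b, Mmp8, Mmp27 and Mmp20 stay at background.

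The promoter windows of the 4 members of this block are printed because these genes were high in the same tumors and their windows all hold the letters of the AP-1 motif and of the TATA motif. The sequences are those of RefSeq on GRCm38.p6, + strand, from 250 bases before to 50 bases after the annotated start, and capitals mark TGANTCA, the AP-1 letters bound by Fos and Jun proteins, which reads the same on both strands. The windows are chr9:7272264-7272563 for Mmp13, chr9:7445572-7445871 for Mmp3, chr9:7502092-7502391 for Mmp10 and chr9:7691840-7692139 for Mmp7, the first of its 2 entries.
Mmp13: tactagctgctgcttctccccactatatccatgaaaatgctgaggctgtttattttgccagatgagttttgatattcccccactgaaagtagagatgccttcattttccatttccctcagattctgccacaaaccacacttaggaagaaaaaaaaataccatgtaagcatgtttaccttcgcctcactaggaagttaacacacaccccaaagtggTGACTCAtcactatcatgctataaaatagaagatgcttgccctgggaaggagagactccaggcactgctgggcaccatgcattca
Mmp3: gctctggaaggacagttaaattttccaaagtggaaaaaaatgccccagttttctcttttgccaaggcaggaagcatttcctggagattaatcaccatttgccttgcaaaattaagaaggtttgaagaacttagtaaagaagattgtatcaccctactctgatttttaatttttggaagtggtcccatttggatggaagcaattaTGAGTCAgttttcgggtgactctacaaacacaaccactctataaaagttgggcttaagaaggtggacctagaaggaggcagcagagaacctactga
Mmp10: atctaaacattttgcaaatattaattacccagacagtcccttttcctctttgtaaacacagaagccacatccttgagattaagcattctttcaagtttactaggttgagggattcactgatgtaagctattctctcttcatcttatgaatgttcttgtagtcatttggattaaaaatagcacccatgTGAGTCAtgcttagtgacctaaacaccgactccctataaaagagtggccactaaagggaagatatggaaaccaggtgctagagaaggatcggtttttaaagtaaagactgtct
Mmp7: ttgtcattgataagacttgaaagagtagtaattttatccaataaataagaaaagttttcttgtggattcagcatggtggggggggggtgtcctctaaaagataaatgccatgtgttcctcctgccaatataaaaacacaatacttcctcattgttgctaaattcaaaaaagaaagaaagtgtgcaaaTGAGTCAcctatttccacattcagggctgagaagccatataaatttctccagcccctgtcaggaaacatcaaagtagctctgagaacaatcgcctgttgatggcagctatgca
Each window held 1 match, whose first base lay 35 bases before the start in Mmp13, 46 in Mmp3, and 63 in both Mmp10 and Mmp7. Of 32851 promoter windows of the same length 7.81% held the motif, and 2.73% held it within the 100 bases before the start. The windows of the 4 other members with an entry (Mmp14, Timp1, Timp2 and Timp3) held no such letters. The ETS motif AGGAAG, searched on both strands, had 2 matches in Mmp13, 1 each in Mmp3, Mmp7, Mmp14 and Timp3, and 3 in Timp1, against 35.4% of all windows with a match. The TCF/LEF motif CTTTGA, searched on both strands, was found in Mmp7 and Timp1 alone, just after the start, against 16% of all windows. The TATA letters TATAAA, searched on the gene's strand, began 16 bases before the start in Mmp13, 7 in Mmp3, 29 in Mmp10 and 26 in Mmp7 (with another match farther out), and were in none of the 4 other windows, against 8.32% of all windows. No match of one motif overlapped a match of another in the printed windows. These are matches of letters only, and the arrays do not measure binding.

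The gelatinases Mmp2 and Mmp9 cut denatured collagen and basement membrane collagen. Mmp2, known from fibroblasts, was detected in all 8 tumors, at 11.86, 10.33, 10.03 and 9.85 in VP16LXRa replicates 5 to 8, against 11.74, 9.88, 10.28 and 9.07 in VP16 replicates 1 to 4. Outside the high pair its tumors lay between 9.85 and 10.33 in VP16LXRa and between 9.07 and 10.28 in VP16. The log2 difference was 0.28 (SE 0.62, 95% interval -1.13 to 1.69) and the exact permutation p was 0.657.

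Mmp9, known from neutrophils and macrophages, stood at 10.72, 6.51, 6.05 and 6.93 in VP16LXRa replicates 5 to 8, against 9.53, 6.31, 5.37 and 5.44 in VP16 replicates 1 to 4. All 4 VP16LXRa tumors and 3 of the 4 VP16 tumors passed the detection threshold. VP16LXRa replicate 5 and VP16 replicate 1 were the highest, with the next tumor 2.60 log2 units below the lower of them. The means were 7.55 ± 2.14 in VP16LXRa and 6.66 ± 1.96 in VP16 tumors (SD, n = 4 each), with a log2 difference of 0.89 (SE 1.22, 95% interval -1.90 to 3.68) and an exact permutation p of 0.486.

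Mmp14, the membrane-anchored collagenase that activates Mmp2, was detected in every tumor. It stood at 12.92, 10.19, 10.70 and 10.76 in VP16LXRa replicates 5 to 8, against 12.43, 10.97, 10.83 and 10.66 in VP16 replicates 1 to 4. Apart from the high pair its values were close together in both groups. The log2 difference was -0.08 (SE 0.63, 95% interval -1.51 to 1.35), with an exact permutation p of 0.829.

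Among the inhibitors, Timp1, which is induced by many of the signals that induce MMPs, was the one with the high pair more than 1 log2 unit above the other 6 tumors. Its brighter probe stood at 9.60, 7.09, 7.07 and 7.71 in VP16LXRa replicates 5 to 8, against 10.11, 6.51, 6.74 and 6.29 in VP16 replicates 1 to 4. The other probe stood at 9.68, 6.92, 6.85 and 7.83 in VP16LXRa replicates 5 to 8, against 9.94, 6.56, 6.57 and 6.12 in VP16 replicates 1 to 4. Both probes gave the same order of tumors at the top: VP16 replicate 1, then VP16LXRa replicate 5, then VP16LXRa replicate 8. The log2 differences were 0.45 (SE 0.92) and 0.52 (SE 0.94), with exact permutation p-values of 0.543 and 0.486.

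Timp2 and Timp3, the matrix-bound inhibitor, varied less. Timp2 stood at 10.76, 10.09, 9.98 and 9.84 in VP16LXRa replicates 5 to 8, against 10.62, 10.09, 10.37 and 8.62 in VP16 replicates 1 to 4. Its most deviant tumor was VP16 replicate 4, the lowest of the 8. The log2 difference was 0.24 (SE 0.43, 95% interval -0.74 to 1.23), with an exact permutation p of 0.743. Timp3 stood at 9.96, 9.76, 9.23 and 9.32 in VP16LXRa replicates 5 to 8, against 11.18, 9.89, 10.04 and 8.65 in VP16 replicates 1 to 4. It was the exception to the shared order, since VP16LXRa replicate 5 (9.96) lay below VP16 replicate 3 (10.04). The log2 difference was -0.37 (SE 0.48, 95% interval -1.46 to 0.71), with an exact permutation p of 0.543. A further Timp3 probe was detected in VP16 replicate 1 alone.

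**Figure D3:**
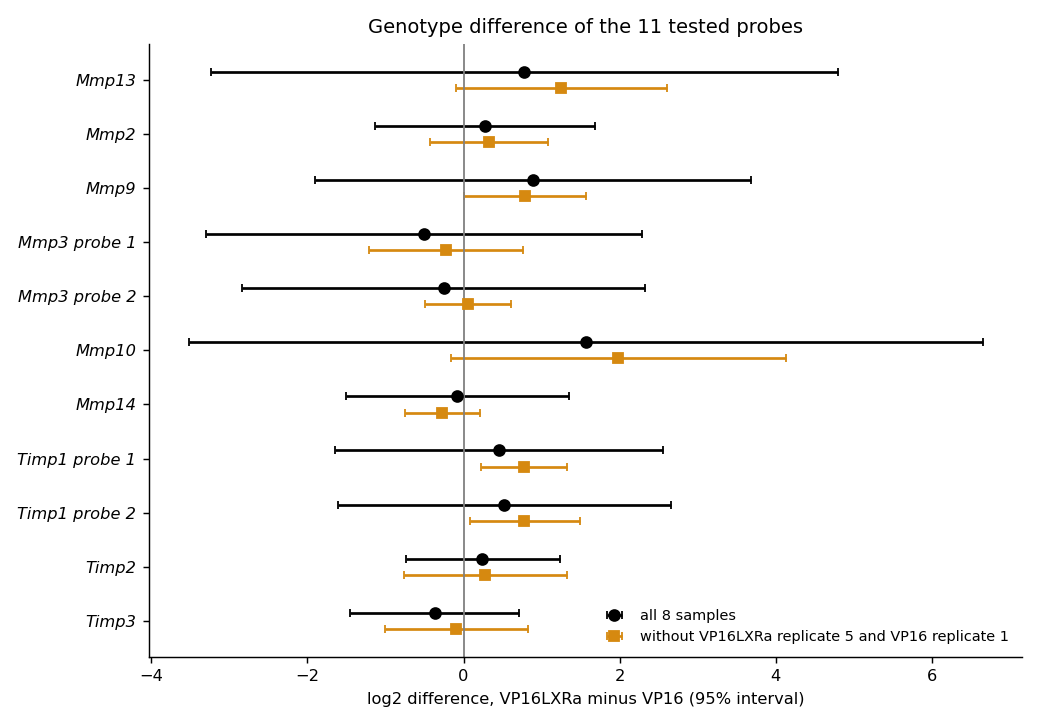
Log2 difference, VP16LXRa minus VP16 (x axis), with its 95% interval for the 11 tested probes, over all 8 tumors (black circles) and without VP16LXRa replicate 5 and VP16 replicate 1 (orange squares). Intervals over all 8 tumors include 0 for each probe; without both tumors they are narrower for all probes but Timp2, and those of Timp1 and Mmp9 lie above 0, with no probe past the threshold after adjustment.

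The direction of several differences rested on 1 tumor. Leaving out VP16LXRa replicate 5 alone turned Mmp13 to -0.40, Mmp2 to -0.17, Mmp9 to -0.16 and the Timp1 probes to -0.12 and -0.10. Leaving out VP16 replicate 1 alone turned the Mmp3 probes to 0.61 and 0.83, Mmp14 to 0.32 and Timp3 to 0.04. Mmp10 kept its sign but stood between 0.01, without VP16LXRa replicate 5, and 3.54, without VP16 replicate 1, where the VP16 tumors left were all undetected.

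Without VP16LXRa replicate 5 and VP16 replicate 1 again 0 of the 11 probes passed limma's test (adjusted p = 1 for each), against 0.0337% of all tested probes. Unadjusted p was under 0.05 for 3 of the 11, both Timp1 probes and Mmp9, against 3.24% of all. Timp1 differed by 0.78 at both probes (SE 0.23 and 0.30), with means of 7.29 ± 0.36 in VP16LXRa and 6.51 ± 0.22 in VP16 tumors at the brighter one (SD, n = 3 each). Mmp9 differed by 0.79 (SE 0.33) and Mmp13 by 1.25 (SE 0.57). For both genes the groups overlapped and the exact permutation p was 0.2, and the Mmp13 interval, -0.1 to 2.6, included 0. Mmp9 lay close to the detection limit in VP16 replicates 3 and 4, at 5.37 and 5.44. Mmp10 was detected in none of the 3 remaining VP16 tumors, so its difference has only a bound. It averaged 7.02 (SD 2) in the 3 VP16LXRa tumors and 5.04 in the 3 VP16 tumors. With the VP16 tumors set at the lowest detected signal of their arrays (5.39), these means differed by at least 3.1-fold. The VP16LXRa mean rested largely on replicate 8 at 9.26, since replicates 6 and 7 stood at 5.43 and 6.38. The interval of the log2 difference, -0.16 to 4.13, included 0 (limma adjusted p = 1), so the fold is not a firm group difference. The 3 VP16LXRa tumors lay above the 3 VP16 tumors for 3 of the 11 probes, those of Mmp10 and Timp1, against 4.08% of all tested probes, and groups did not overlap in either direction for 8.03%. The Timp1 probes read the same gene and do not count separately. Mmp10 passed the filter mainly through the VP16LXRa group, detected in 4 of its tumors against 1 VP16 tumor, so the filter favoured its separation. The VP16LXRa mean was the higher for 8 of the 11, against 50.9% of all tested probes. For the probes of Mmp10 and Timp1 the exact permutation p was 0.1, the smallest that 3 against 3 allows. VP16LXRa replicate 8 was the highest of the 6 remaining tumors for 5 of the 11 probes (Mmp13, Mmp10, Mmp9 and both of Timp1), against 13.2% of all tested probes, a pattern noticed after the values were seen. In the same 6 tumors macrophage markers were higher in VP16LXRa for 8 of 11 genes, with a median log2 difference of 0.36 and 3 at an unadjusted p under 0.05. Neutrophil genes were higher for 4 of 4, with a median of 1.02 and 1 at an unadjusted p under 0.05, and fibroblast markers for 10 of 14, with a median of 0.22 and 0 under 0.05. This was not particular to these lists. Smooth muscle markers were higher for 7 of 8 (median 0.53), Wnt targets for 8 of 10 (0.22) and Paneth cell genes for 4 of 6 (0.8). Colonocyte genes were higher for 5 of 9 (0.04), endothelial markers for 4 of 8 (0.02) and colon epithelial markers for 1 of 9 (-0.11). None of these genes passed limma's test after adjustment, and their part in the Timp1, Mmp9, Mmp13 and Mmp10 values was not tested.

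Likeness between genes was measured as the root mean square distance between log2 values centred on each probe's mean over the 8 arrays, where 0 is an identical course and genes that vary little lie close to many others. The pairs of probes of 1 gene were the closest, at 0.13 for Timp1 and 0.32 for Mmp3. Next came Timp2 with Timp3 (0.41), Mmp14 with Mmp2 (0.47) and Mmp2 with Timp2 (0.48). Mmp10 was nearest to Mmp13 among all named genes (0.87), followed by Lcn2, an iron-trapping antibacterial protein (1.04), Atg9b (1.08) and the neutrophil attractant Cxcl1 (1.09). For Mmp13 the nearest included Tnfrsf11b, the decoy receptor osteoprotegerin (0.52), Atg9b (0.53), Cxcl1 (0.54) and Alox12 (0.56).

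The neighbours of the other members were different genes. Mmp2 was nearest to Adamts2, which trims procollagen (0.14), Col7a1 (0.17), Sparc (0.18), Dcn (0.19) and Pard6g (0.19), and Mmp14 to Pdgfb (0.19), Gdf15 (0.21), F2rl3 (0.21), Pdgfrb (0.22) and Atp10a (0.22). Mmp9 was nearest to Prr18 (0.34), followed by the Wnt-induced transcription factor Sp5 (0.48), Rem2 (0.48), Odz4 (0.53) and Avil (0.53). Mmp3 at its dimmer probe was nearest to the retinol-binding protein receptor Stra6 (0.35), Ccdc46 (0.45), Marcksl1 (0.46), Robo1 (0.50) and the cytokine Il1b (0.51), and the same 5 genes were nearest to its brighter probe. Among the nearest to the brighter Timp1 probe were Isl1 (0.26), Avil (0.27), Igfbp4 (0.31) and Sox21 (0.31), and the other probe shared Avil and Isl1 with it and had Krt23 (0.25) and Ier3 (0.26) besides. Timp2 was nearest to Col16a1 (0.07), Nbl1 (0.13), Prdx2 (0.14), Frmd6 (0.14) and Fbn1 (0.15), and Timp3 to Ephx1 (0.16), Ccnd2 (0.28), Ltbp4 (0.29), Serpinf1 (0.30) and Bace1 (0.31). These distances describe 8 arrays and in most cases rest on the same high pair.

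Other genes of matrix breakdown are given at each gene's brightest tested probe, and none of those tested passed limma's test in either direction (0 of 6, 6, 6, 15, 14 and 14 genes in the 6 lists that follow). For these lists and the cell type lists further on, counts of genes highest in the high pair stand beside 20.4% of all tested probes. Dim genes of the lists may have passed the filter only through that pair. Of the remaining MMPs and their membrane regulators 4 of 6 were higher in VP16LXRa, with a median log2 difference of 0.08. The membrane-type Mmp15 differed by 0.41 (SE 0.31), Reck, a membrane-bound MMP inhibitor, by -0.32 (SE 0.27) and Mmp17 by 0.39 (SE 0.37). Of these 6 genes 1, Mmp23, was highest in VP16LXRa replicate 5 and VP16 replicate 1, so most tested genes of this list did not share the course of the members. Only these 6 of the 18 listed genes on the array were tested, and Mmp12, which is not among them, did have that pair on top.

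The list for the plasminogen system, whose product plasmin activates MMP precursors, held 5 of 6 tested genes with that pair on top. They were Plau, Plaur, Anxa2, Thbd and Serpinf1, of which Thbd and Serpinf1 are not core parts of that system. The median difference of the list was 0.08. The urokinase Plau stood at 8.85 in VP16LXRa replicate 5 and 9.52 in VP16 replicate 1, against 6.43 to 7.62 elsewhere, and its receptor Plaur at 7.52 and 7.46 in the same order, against 5.27 to 5.99. Between genotypes Thbd differed by 0.51 (SE 0.44), S100a10 by 0.13 (SE 0.22) and Anxa2 by -0.16 (SE 0.29). Of the ADAM and ADAMTS proteases 1 of 6, Adamts2, was highest in that pair, with a median difference of 0.14 over the list. Adamdec1 differed by 0.42 (SE 0.23), Adam17, which sheds cytokines and growth factors, by 0.27 (SE 0.23) and Adamts2 by 0.43 (SE 0.59). The list of cathepsins and other matrix proteases also held the protease inhibitors Cst3, Cstb, Spint1 and Spint2. Of its 15 tested genes 4, among them Cstb, were highest in the pair (median difference 0.05). The heparanase Hpse differed by 0.55 (SE 0.22), the only gene of these 6 lists with an unadjusted limma p under 0.05 (0.0344; adjusted p = 1), Ctsz by 0.54 (SE 0.35) and Cst3 by 0.21 (SE 0.18).

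Of the cytokines and transcription factors known to induce MMP genes 9 of 14 were highest in the high pair, with a median genotype difference of 0.05. The cytokine Il1b stood at 11.48 in VP16LXRa replicate 5 and 11.19 in VP16 replicate 1, against 6.52 to 7.85 elsewhere. Il11 stood at 10.15 and 10.71 in the same order, against 4.79 to 5.81, and Osm at 8.69 and 8.43, against 4.70 to 5.73. Between genotypes Areg (0.21, SE 0.25), Tgfb2 (-0.25, SE 0.34) and Elf3 (-0.15, SE 0.25) had the smallest p in this list, none under 0.05. Of the substrates and matrix partners 11 of 14 were highest in the pair (median difference 0.09), among them Sparc, at 11.87 in VP16LXRa replicate 5 and 11.61 in VP16 replicate 1 against 8.67 to 10.20 elsewhere. Lum differed between genotypes by -0.82 (SE 0.48) and Cdh1 by -0.18 (SE 0.17). Without both high tumors 0 genes of these 6 lists passed, and 2 genes, both in the plasminogen list, had an unadjusted p under 0.05.

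**Figure D4:**
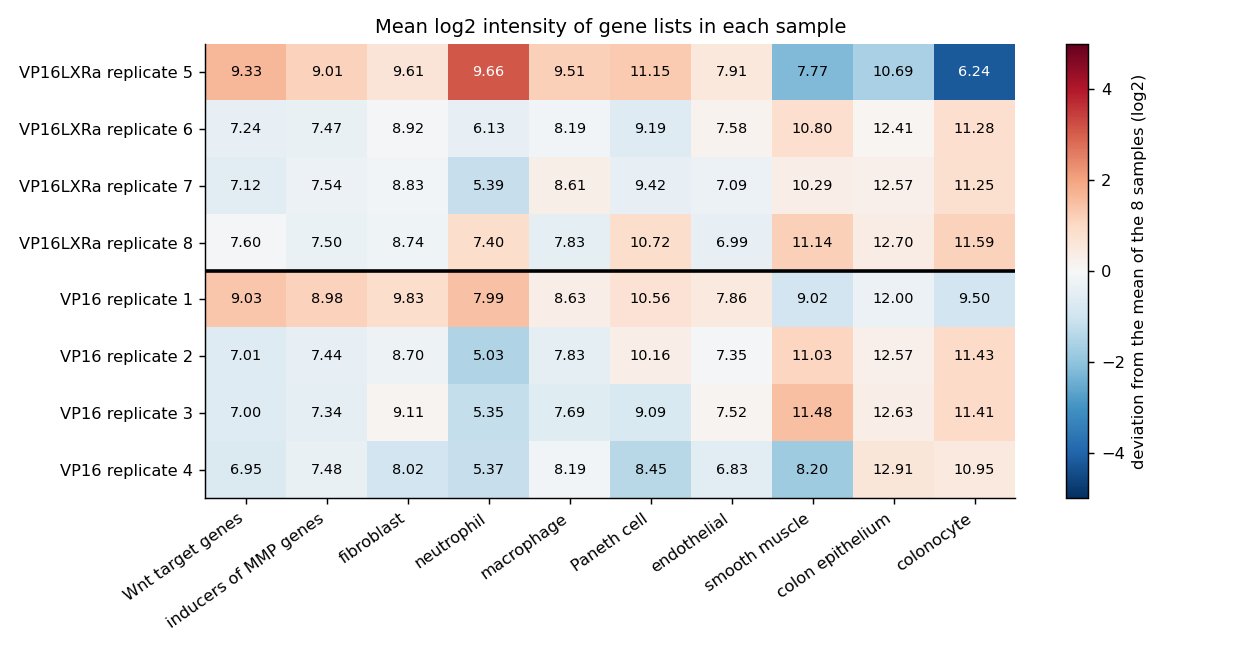
Mean log2 intensity (number) of the tested genes of 10 lists (x axis) in each VP16LXRa (upper 4 rows) and VP16 tumor (lower 4 rows); colour is the deviation from the mean of the 8 tumors. Wnt targets, MMP inducers and neutrophil genes are high, and colonocyte genes low, in VP16LXRa replicate 5 and VP16 replicate 1.

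Markers of several cell types moved with the members, and some genes, such as Sparc, stand in more than 1 list. The summed level of a list is the sum of its tested genes' normalized intensities. For Wnt target genes (10 of 17 tested, 9 of them highest in the high pair) it was 15000 in VP16LXRa replicate 5 and 4220 to 5160 in the other VP16LXRa tumors, against 14500 in VP16 replicate 1 and 3970 to 4500 in the other VP16 tumors. The fibroblast markers (14 of 16 tested, 10 highest in the pair) summed to 25500 in VP16LXRa replicate 5 and 10200 to 13300 in the others of its group, against 26500 in VP16 replicate 1 and 5990 to 15000 in the others of its group. The lowest fibroblast sum, in VP16 replicate 4, fell together with the lowest Mmp2, Timp2 and Timp3 values of the 8 tumors. This tumor also had the lowest smooth muscle (9380), endothelial (939) and Paneth cell (17400) sums, so the coincidence was not particular to fibroblast markers.

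The neutrophil sum (4 of 12 tested: Ltf, Csf3r, Lcn2 and Retnlg) was 10100 in VP16LXRa replicate 5, 1250 in replicate 8 and 110 to 325 in replicates 6 and 7, against 2340 in VP16 replicate 1 and 78.6 to 107 in the other VP16 tumors. Lcn2, which epithelial cells also make, supplied most of it in VP16LXRa replicate 5 and VP16 replicate 1, and the other listed genes on the array did not pass the filter. VP16LXRa replicate 8 was thus the next in order for this sum, as it was for Mmp13, Mmp10, Mmp9 and Timp1. Macrophage markers (11 of 14 tested, 4 highest in the pair) summed to 12900 in VP16LXRa replicate 5 and 3190 to 6860 in the other VP16LXRa tumors, against 6580 in VP16 replicate 1 and 2800 to 4990 in the other VP16 tumors. Their sum followed the pair only in part, since VP16LXRa replicate 7 (6860) lay above VP16 replicate 1. Paneth cell genes (6 of 9 tested) summed to 28700 to 46800 in VP16LXRa and 17400 to 45500 in VP16 tumors. The 3 tumors with Mmp7, VP16LXRa replicates 8 and 5 and VP16 replicate 1, had sums of 46800, 41500 and 36800. VP16 replicate 2, where Mmp7 was not detected, had a sum of 45500. By the mean log2 intensity of these genes the 3 tumors with Mmp7 were the highest, at 10.72, 11.15 and 10.56 in the same order. VP16 replicate 2 followed at 10.16. The genes of this list did not run together, and 3 of the 6 were highest in the high pair. Pla2g2a stood at 15.01 in VP16LXRa replicate 5 and 14.97 in VP16 replicate 1, against 10.81 to 13.85 elsewhere. Ang4 was lowest there, at 10.7 and 11.07 in the same order, against 11.08 to 15.09. Endothelial markers (8 of 10 tested, 5 highest in the pair) ranged from 1260 to 3130 in VP16LXRa and from 939 to 2500 in VP16 tumors.

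Smooth muscle and epithelial genes ran the other way or separately. Smooth muscle markers (8 of 10 tested, 0 highest in the pair) ranged from 12700 to 61100 in VP16LXRa and from 9380 to 80200 in VP16 tumors. Their sum was 9380 in VP16 replicate 4, 12700 in VP16LXRa replicate 5 and 21000 in VP16 replicate 1, against 39200 to 80200 elsewhere. Colonocyte markers (9 of 10 tested) summed to 2500 in VP16LXRa replicate 5 and 66000 to 77100 in the others of its group, against 19700 in VP16 replicate 1 and 59400 to 85500 in the others of its group. The broader epithelial list summed to 53600 in VP16LXRa replicate 5 and 79700 to 94000 in the other VP16LXRa tumors, against 74900 in VP16 replicate 1 and 83200 to 107000 in the other VP16 tumors. The part of these cell types in the levels of the MMP and TIMP genes was not tested.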

How the data were processed

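The members, gene lists and tests were chosen with earlier results of these data known. Per the file headers, the deposited table holds for each array a bead signal, an intensity without normalization, and a detection p-value per probe. GenomeStudio is named, with no version, per the submitters' processing notes. The authors' processed intensity values, deposited separately on a linear scale, had medians of 18.04 to 18.16 and a lowest value of -24.3, and their normalization is not stated. Raw medians were 126.2 to 145.8, and no 2 arrays were identical.

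Titles gave each sample's genotype. Signals were processed with neqc (normexp from detection p-values, quantile, offset 16) in limma 3.58.1 (R 4.3.3). Probes detected (p under 0.01) on at least 4 arrays entered lmFit and eBayes (two-sided), and p-values were adjusted by Benjamini-Hochberg over all 11875, with a threshold of 0.05. The number of arrays limits the precision. Single values had exact permutation tests over the 70 splits. Named were all members, up to 3 genes of each pathway list by smallest p, up to 3 of each marker list by highest mean, and the 5 nearest genes to each tested member; genes named for their levels in the high pair, Mmp12, Mmp23 and those among the neutrophil genes were picked after seeing values. Some genes that this rule takes are not reported here. Gene symbols come from the array table. For 8 of 10 members RefSeq had a promoter entry. The scripts were tested on simulated data. Alternatives covered background correction, normalization, offset, filters, variance models, weights and left-out arrays.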

Additional observations from a re-analysis of the deposited data

Results flagged for a closer look

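In groups of 4, a tumor was marked where its gap to the nearest other tumor, divided by the group's range, passed Dixon's 95% critical value for 4 samples. Of 22 combinations of tested probe and group 6 were marked, all for VP16 replicate 1 as the highest of its group; chance marks about 1 group in 20, and the probes of a gene and the genes of a tumor are not independent. The gap was 0.922 of the range for Mmp13 (13.95), 0.922 for Mmp10 (12.95), 0.846 and 0.895 for the probes of Mmp3 (10.07 and 9.81), and 0.884 and 0.88 for the probes of Timp1 (10.11 and 9.94). VP16LXRa replicate 5 was not marked for any tested probe.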

How the results depend on the processing

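No member probe passed the threshold under any alternative (227 differences, smallest adjusted p = 0.971, smallest unadjusted p = 0.0118). The sign of 18 of these 227 differed from the one reported, 2 of them other than by leaving out 1 array. Besides VP16LXRa replicate 5 and VP16 replicate 1, leaving out VP16 replicate 4 turned Mmp2 (-0.11) and Timp2 (-0.19), VP16LXRa replicate 6 the dimmer Mmp3 probe (0.11) and Mmp14 (0.24), VP16LXRa replicate 8 the same (0.03 and 0.05), and VP16LXRa replicate 7 Mmp14 (0.07). Over left-out arrays the log2 difference ranged from -0.40 to 2.43 for Mmp13, -0.17 to 0.78 for Mmp2, -0.16 to 1.85 for Mmp9, -1.35 to 0.61 and -1.02 to 0.83 for the Mmp3 probes, 0.01 to 3.54 for Mmp10, -0.67 to 0.32 for Mmp14, -0.12 to 1.35 and -0.10 to 1.40 for the Timp1 probes, -0.19 to 0.48 for Timp2 and -0.80 to 0.04 for Timp3. Of the 11 probes 2 were higher in VP16LXRa without VP16LXRa replicate 5 and 11 without VP16 replicate 1, against 7 over all arrays. The dimmer Mmp3 probe turned to 0.06 without both high tumors, and Timp2 to -0.03 with array weights; the cause was not tested. Over all probes 0 were called without background correction, with an offset of 50, without a filter or with detection on all 8 arrays, 4 without both high tumors, and 0 to 2 over left-out arrays, in place of 1. No paired analysis was possible because the groups share no replicate numbers in their titles. Signals near background limit Mmp7, Mmp3 and, in VP16 tumors, Mmp10.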
